A study of Homo sapiens with 4 samples.

Results

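The loci of 5 genes whose products restrain BMP signaling, SMAD6, SMAD7, BAMBI, NOG and SMURF1, were examined for binding of SMAD1, the transcription factor through which BMP receptors act on genes. Every SMAD1 peak within 100 kb of a gene body (genome build hg19) was taken, from either of the 2 deposited peak lists. This gave 11 peaks of the 12885 listed, of which 10 came from cells treated with BMP4 (of 7682) and 1 from untreated cells (of 5203). The lists were made by ChIP-seq, in which fragments of chromatin pulled down with an antibody against SMAD1 are sequenced. The cells were of the established line H1 of human embryonic stem cells (hESCs), grown in mTeSR1, a medium that maintains pluripotency, either without treatment (0 min) or with 50 ng/ml of the growth factor BMP4 for 60 min. Each condition is represented by 1 list, built against an input sample of the same condition, so no value below carries a replicate error and no difference between the conditions could be tested. Read counts and the depth of each library are not given by the lists. A site missing from a list is therefore known only to have stayed under the lowest score listed, which was 50 in both.

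BMP ligands bind receptor kinases at the plasma membrane, which phosphorylate SMAD1 and its close relatives SMAD5 and SMAD9. These then join SMAD4 and enter the nucleus. The pathway is known for inducing its own inhibitors, which act at successive steps. NOG (Noggin) is secreted and binds BMP ligands outside the cell. BAMBI is a membrane protein that resembles a BMP receptor but lacks a kinase domain. SMAD6 and SMAD7 are inhibitory SMADs that act at the receptor and, in the case of SMAD6, also on activated SMAD1. SMURF1 is a ubiquitin ligase that targets SMAD1 and, together with SMAD7, the receptors for degradation. SMADs recognize the short sequence GTCT (AGAC on the other strand), and those activated by BMP also bind GC-rich elements such as GGCGCC and GGAGCC.

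A BMP4 peak covered the gene start at 2 of the 5 genes, SMAD6 and BAMBI, and their promoters are shown for that reason. The share of all gene starts covered by a BMP4 peak was not computed. The sequences are the 250 bases before the RefSeq gene start (build GRCh38.p14), 5′ to 3′ on the plus strand, on which both genes lie. They were matched by gene symbol and not by position, since the peaks are in hg19, and the first base of a gene can differ between the annotations. Capitals mark every match to GTCT or to AGAC, to the palindrome GGCGCC, and to GGAGCC or, for the other strand, GGCTCC.
SMAD6, chr15:66701986-66702235: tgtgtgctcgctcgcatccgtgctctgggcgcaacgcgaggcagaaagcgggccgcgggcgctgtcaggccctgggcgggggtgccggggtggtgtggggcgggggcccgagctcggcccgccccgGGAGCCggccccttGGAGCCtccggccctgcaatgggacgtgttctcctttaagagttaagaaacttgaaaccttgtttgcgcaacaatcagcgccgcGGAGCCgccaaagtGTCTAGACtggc
BAMBI, chr10:28677271-28677520: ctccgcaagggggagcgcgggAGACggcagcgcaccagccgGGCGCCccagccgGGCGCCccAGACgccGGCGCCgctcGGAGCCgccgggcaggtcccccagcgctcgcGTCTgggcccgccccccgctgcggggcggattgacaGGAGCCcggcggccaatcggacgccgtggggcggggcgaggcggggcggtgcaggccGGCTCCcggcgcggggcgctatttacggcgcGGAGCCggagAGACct

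The SMAD6 promoter held 1 GTCT and 1 AGAC, directly joined into the palindrome GTCTAGAC that began 12 bases before the gene start. Either short element was common, with GTCT in 60.4% and AGAC in 59.8% of the 35116 RefSeq promoter windows (each 300 bases long, from 250 before to 50 after a gene start), whereas the joined palindrome stood in 71 of them (0.202%). The joined form was singled out after the sequence had been read. SMAD6 also had 3 copies of GGAGCC, a number reached on the same strand by 0.618% of promoter windows, and no GGCGCC. BAMBI held 3 copies of GGCGCC between 209 and 181 bases before its start, a number reached by 0.871% of windows. It further held 3 of GGAGCC, 1 of GGCTCC, 1 of GTCT and 3 of AGAC, and at least 3 AGAC stood in 7.89% of windows. None of the GC-rich elements was found in the SMURF1 window, which held AGAC at 2 places and no GTCT, and at least 2 AGAC stood in 24.9% of windows. SMAD7 has 3 RefSeq windows. The one at its outermost start held 2 GTCT and 2 AGAC, numbers reached by 25.3% and 24.9% of windows, and none of the GC-rich elements. The next held 3 GTCT (reached by 8.13%) and 2 AGAC, and the innermost held 2 GTCT, 1 GGAGCC (21.2%) and 1 GGCTCC (20%). On either strand, 84.0% of all windows held GTCT or AGAC, and 36.0% held GGAGCC or GGCTCC. The shares of windows with several copies count the letters as written, without those of the other strand, and were not matched for GC content. These matches describe letters in a window and are not measured binding sites. In all, 4 of the 5 genes had a RefSeq promoter entry (SMAD6, SMAD7, BAMBI and SMURF1).

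Before BMP4, 1 of the 5 loci held a SMAD1 peak, whereas 4 did after 60 min of BMP4. The BMP4 list had 5 peaks at SMAD6, 3 at SMAD7, 1 at BAMBI, 1 at NOG and 0 at SMURF1. The single untreated peak lay at SMAD7. These numbers depended on how many peaks were listed, and with both lists limited to their top 400 peaks by score, 2 BMP4 peaks (at BAMBI and SMAD7) and 0 untreated peaks were left. For scale, the chromosomes were cut into 13402 consecutive windows of 231 kb, the median length of a gene body with 100 kb on both sides. A BMP4 peak was found in 38.2% of these windows and an untreated peak in 25.6%. The windows were placed without regard to genes. Windows with several peaks were fewer, as 5 or more BMP4 peaks, the number at SMAD6, were held by 0.895% of windows of the length used for SMAD6 (279.7 kb), and 3 or more, the number at SMAD7, by 3.66% of windows of the length used for SMAD7 (231 kb). The 5 peaks at SMAD6 included 2 that lay 205 bp apart and 1 that scored 51.0, and 2 of the 5 scored at least 100. The share of windows with as many peaks of at least that score was not computed. SMAD6, BAMBI and NOG held BMP4 peaks and no untreated peak, as did 24.6% of the 231 kb windows. The 10 BMP4 peaks made up 0.130% of their list (95% exact binomial interval 0.0624 to 0.239). The untreated peak made up 0.0192% of its list (0.000487 to 0.107). These intervals cover counting error only and treat peaks as independent, although 5 share the SMAD6 locus and 3 the SMAD7 locus. The shares of the lists were not tested against each other.

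**Figure D1:**
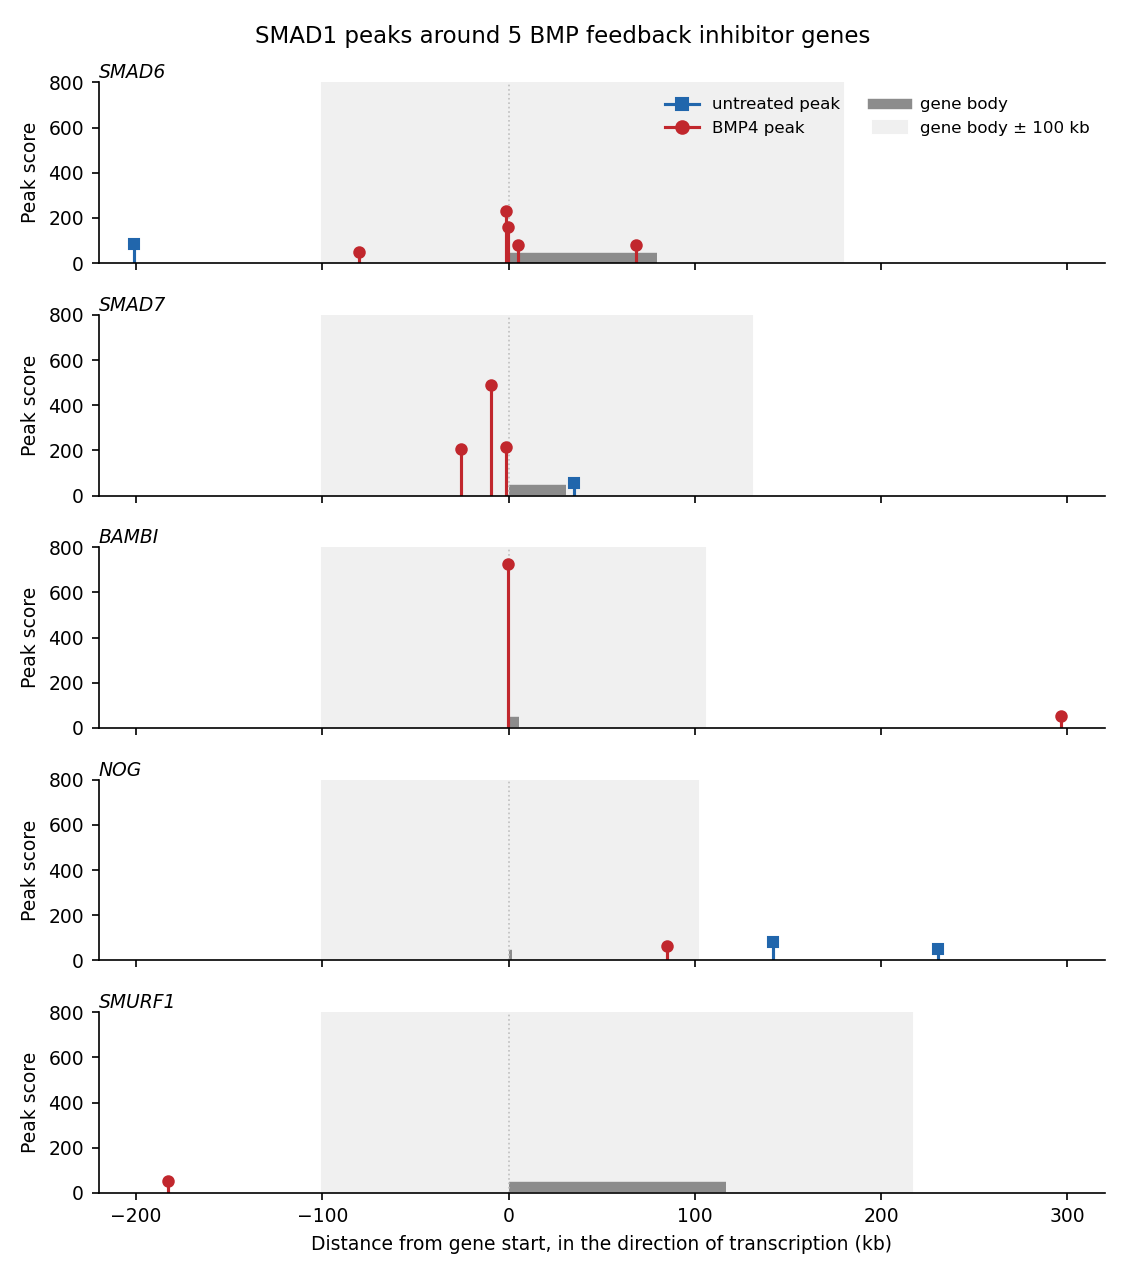
SMAD1 peaks around the 5 genes, plotted by distance of the peak midpoint from the gene start in kb, in the direction of transcription (x axis), and by peak score (y axis), with the gene body in dark gray and the 100 kb limit in light gray. Within the limit, SMAD6 has 5 BMP4 peaks (circles), SMAD7 has 3 and 1 untreated peak (square), BAMBI and NOG have 1 BMP4 peak each, and SMURF1 has none.

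None of the 11 peaks overlapped a peak of the other list. Over the whole lists, 12.7% of BMP4 peaks and 18.3% of untreated peaks had such a partner. A count of 0 among 10 peaks allows a share of up to 30% (3 counts of 10), a range that includes the share over the whole BMP4 list. This limit is rough and treats the peaks as independent, although most share the SMAD6 or the SMAD7 locus. For the 6 BMP4 peaks that scored at least 100, the missing partner is set below beside peaks with similar scores. Scores were taken to be −log10 of the p-value from the peak caller, multiplied by 10. They rise with depth and peak width, and equal scores in the 2 lists need not stand for equal enrichment.

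BAMBI, the pseudoreceptor, had the strongest peak of the group. It lay at chr10:28965170-28966777 (hg19), was 1608 bp wide and scored 727, which placed it at rank 347 of 7682. The peak ran from 1254 bp before the gene start to 353 bp past it and so shared 354 bp with the gene body. In untreated cells the nearest peak on the chromosome was 699.7 kb away, with a score of 55.2. Among the 6708 BMP4 peaks without an untreated partner, the BAMBI peak ranked 14 by score. Of the 347 BMP4 peaks with at least its score, those 14 (4.03%) lacked a partner. Among the 36 BMP4 peaks within 20% of its score, 7 did, or 19.4% (95% exact binomial interval 8.19 to 36.0). The BAMBI peak is itself counted in the 36 and in the 7. Both shares include peaks at transfer RNA regions, which the authors judged nonspecific and which were not counted apart here. The next BMP4 peak on the chromosome was 296 kb away, so that BAMBI carried 1 strong peak at its start and no other within the limit. Such spacing was common, as 35.1% of windows of the length used for BAMBI (205 kb) held any BMP4 peak. The NOG peak lay 886 kb from the next.

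SMAD7, the inhibitory SMAD that acts on receptors, had 3 BMP4 peaks in a row upstream of its start and none in its body. The gene lies on the minus strand at chr18:46446223-46477081. The closest peak, at chr18:46478153-46479150, began 1.07 kb upstream, was 998 bp wide and scored 216. The middle peak, at chr18:46485811-46487001, lay 8.73 kb upstream, was 1191 bp wide and scored 491. The farthest, at chr18:46501896-46503010, lay 24.8 kb upstream, was 1115 bp wide and scored 208. The middle peak thus had the highest score of the 3, and the outer peaks had nearly equal scores. In the BMP4 list they ranked 642, 392 and 657, and among peaks without an untreated partner 193, 31 and 206.

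Untreated cells had 1 peak at the SMAD7 locus, and it lay on the opposite side of the gene. It was found at chr18:46441428-46442062, 4.16 kb past the end of the gene, was 635 bp wide and scored 53.9. This was close to the lowest score listed, and 77.8% of untreated peaks scored as high or higher. The nearest BMP4 peak was the one closest to the SMAD7 start, 36.1 kb away. No BMP4 peak was listed at the untreated site, and no untreated peak at the 3 BMP4 sites.

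SMAD6, the inhibitory SMAD most closely tied to BMP signals, had the most peaks, and the strongest pair stood at its start. The gene lies on the plus strand at chr15:66994674-67074337. The peak at chr15:66992844-66993880 ended 794 bp before the gene start, was 1037 bp wide and scored 232 (rank 612). Its neighbor at chr15:66994085-66994988 ran from 589 bp before the start to 314 bp past it, was 904 bp wide and scored 158 (rank 862). Their nearest edges were 205 bp apart. In the BMP4 list as a whole, 4.48% of peaks had another peak within 1 kb.

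The other 3 SMAD6 peaks had lower scores. The peak at chr15:66999556-67000214 lay inside the gene body, 4.88 kb past the start, with a width of 659 bp and a score of 82.4. Another intragenic peak, at chr15:67062442-67063251, lay 67.8 kb past the start, with a width of 810 bp and a score of 82.3. Both scores were above the list median of 63.3 and below the third quartile of 87.3. The remaining peak, at chr15:66913891-66914484, lay 80.2 kb upstream of the gene, was 594 bp wide and scored 51.0, near the limit of listing. Exons and introns were not assigned to the intragenic peaks, as the annotation used here is of another build. No untreated peak lay within 100 kb of SMAD6, and the nearest was 201 kb upstream with a score of 84.5.

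**Figure D2:**
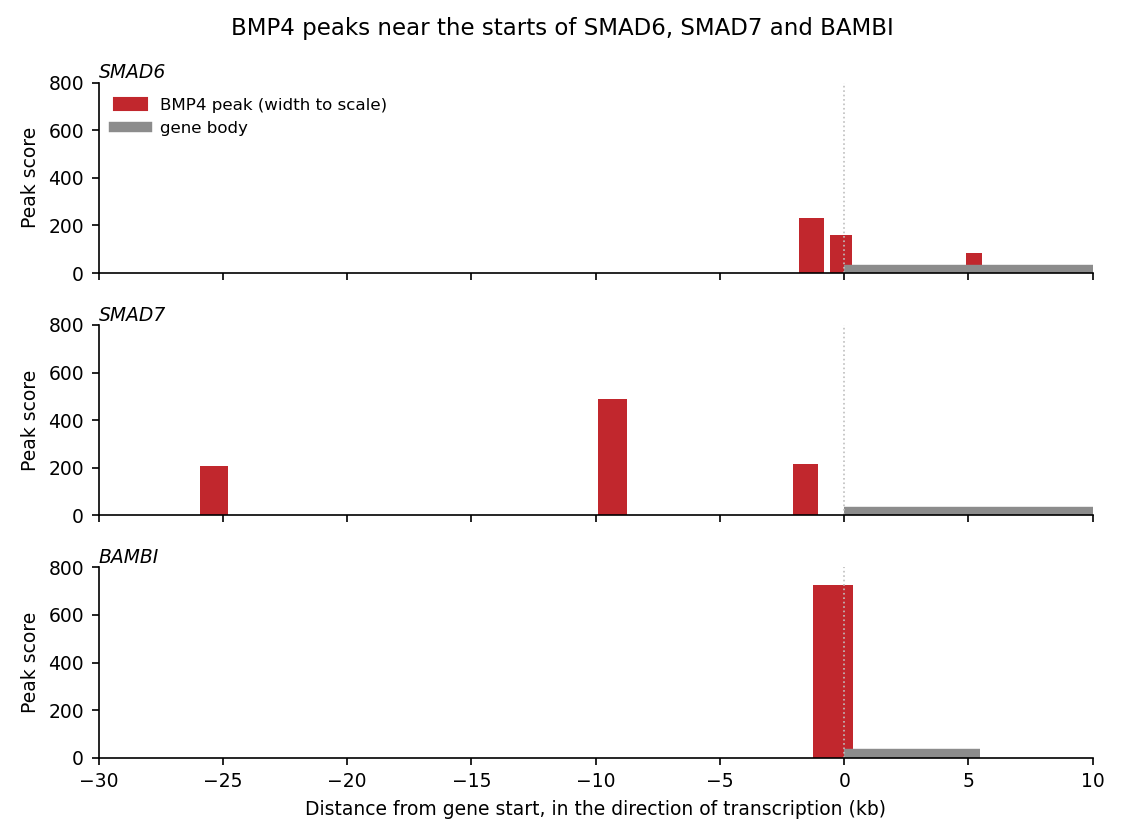
BMP4 peaks from 30 kb before to 10 kb past the starts of SMAD6, SMAD7 and BAMBI, with distance from the gene start in kb on the x axis, peak score on the y axis and peak widths to scale. The peaks of BAMBI (score 727) and SMAD6 (score 158) cover the start, whereas the 3 SMAD7 peaks lie 1.07, 8.73 and 24.8 kb before it, and no untreated peak falls in this range.

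NOG, the secreted antagonist, had no peak near its start. The gene lies on the plus strand at chr17:54671060-54672951. Its single BMP4 peak, at chr17:54755989-54756585, lay 83.0 kb past the end of the gene, was 597 bp wide and scored 66.0, close to the list median of 63.3. The nearest untreated peak lay outside the limit, at 139.5 kb from the gene, with a width of 629 bp and a score of 80.5. The untreated and BMP4 peaks were 55.9 kb apart and both lay downstream.

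SMURF1, the ubiquitin ligase, had no peak of either list within 100 kb of its body at chr7:98625058-98741743 on the minus strand. The nearest BMP4 peak was 182 kb upstream and scored 50.5, which is near the lowest score listed. The nearest untreated peak was 283 kb upstream and scored 55.3. Windows of the length used for SMURF1 (317 kb) held at least 1 BMP4 peak in 47.7% of cases, so a window without one was the more common case. Binding with a score under 50 was not detectable from these lists.

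Most BMP4 peaks at these genes scored above the median of their list. The genes were chosen with earlier results of these data known, so the shares given here are descriptions. Of the 10 peaks, 9 scored above the list median of 63.3, and 6 scored at least 100, which is 60% (95% exact binomial interval 26.2 to 87.8), against 20.2% of all BMP4 peaks. The interval treats the peaks as independent, although 5 share the SMAD6 locus and 3 the SMAD7 locus. The 6 stronger peaks were the pair at the SMAD6 start, the 3 upstream of SMAD7 and the one at the BAMBI start, and scored from 158 to 727. All 6 lay within 30 kb of a gene start, as did 1 of the 4 weaker ones, the peak 4.88 kb into SMAD6. The share of all BMP4 peaks that lie this close to a gene start was not computed, so this count has no background. In untreated cells 21.3% of all peaks scored at least 100, and the 1 peak at SMAD7 did not.

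Relative to the gene start, 5 of the 10 BMP4 peaks lay wholly upstream, 2 covered the start, 2 lay further inside the gene and 1 lay past its end. The shares of all BMP4 peaks in such places were not computed, so these counts have no background. The peak nearest to the 100 kb limit on the inside was that of NOG at 83.0 kb, and the SMAD6 peak at 80.2 kb was the next. The first outside it were the untreated peak at 139.5 kb from NOG and the BMP4 peak at 182 kb from SMURF1.

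Width followed the score. The 10 BMP4 peaks were 594 to 1608 bp wide, with a median of 951 bp, against a list median of 674 bp (quartiles 598 and 895 bp), and 6 were wider than the third quartile. Those 6 were the same peaks that scored at least 100. Across the 10 peaks, Spearman's rho between width and score was 0.95, and across all 7682 BMP4 peaks it was 0.69. Peaks of one list share a library and a peak caller and are not independent, so these coefficients are descriptions. The 10 peaks covered 9.51 kb in all.

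**Figure D3:**
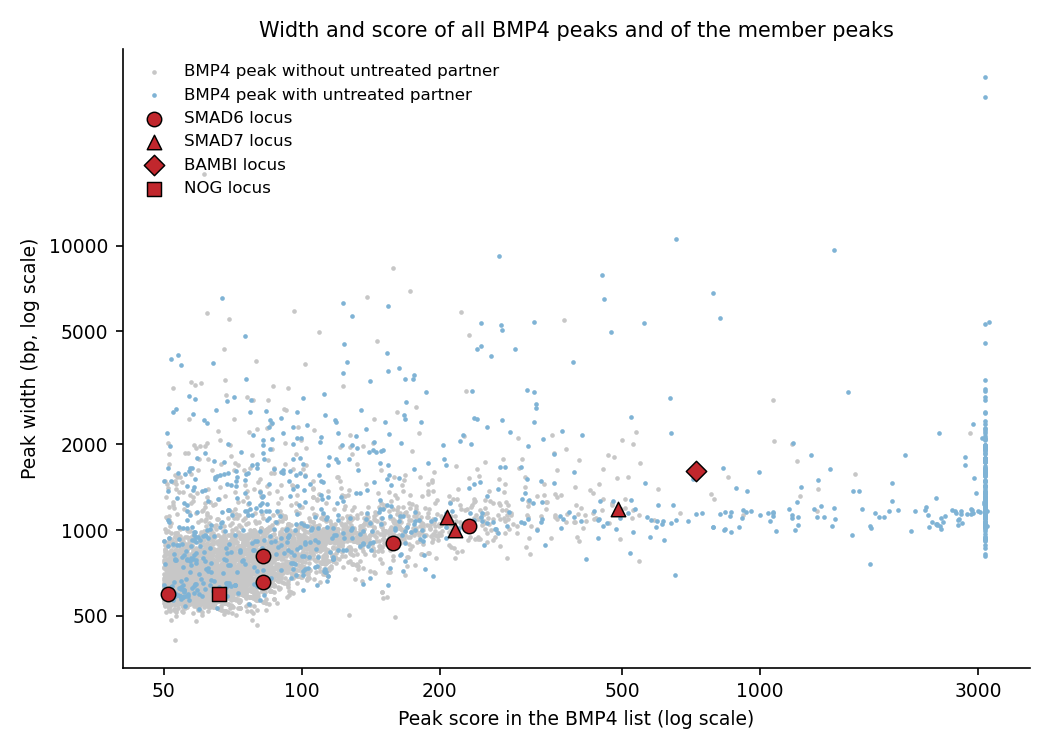
Width in bp against score for all 7682 BMP4 peaks, both on log scales, with peaks that had an untreated partner in blue, those without in gray, and the 10 peaks at SMAD6, SMAD7, BAMBI and NOG as red symbols. BAMBI (1608 bp, score 727) stands in a range where most of the other peaks had a partner, and the weakest peaks of SMAD6 (594 bp) and NOG (597 bp) are narrower than the first quartile of 598 bp.

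The lack of an untreated partner was more usual at the scores of SMAD6 and SMAD7 than at that of BAMBI. Peaks at transfer RNA regions, which the authors judged nonspecific, were kept in this comparison and were not counted apart. Among BMP4 peaks within 20% of the score of the SMAD6 peak at 232, 145 of 195 had no partner, or 74.4% (95% exact binomial interval 67.6 to 80.3). For its neighbor at the gene start (score 158) the share was 76.4% (72.0 to 80.4). Near the scores of the outer SMAD7 peaks it was 76.0% (69.8 to 81.5) and 76.1% (70.3 to 81.3). For the middle SMAD7 peak, at 491, it was 42 of 71, or 59.2% (46.8 to 70.7). Around the BAMBI score the share was 19.4% (8.19 to 36.0). The intervals treat the peaks of a list as independent. Each range counts the peak it was built around, which had no partner. The ranges around neighboring scores share peaks, among them the SMAD6 and SMAD7 peaks at 208, 216 and 232. No test was made between the ranges.

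**Figure D4:**
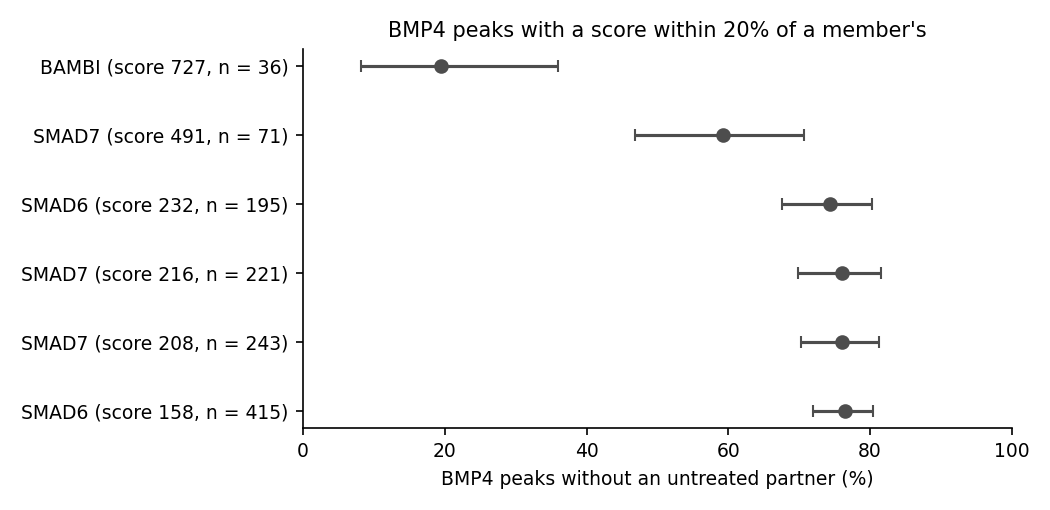
Share of BMP4 peaks without an untreated partner, in percent, among those within 20% of the score of each peak that scored at least 100, with n the number of such peaks and bars the 95% exact binomial intervals. Each n includes the named peak itself. The share is 19.4% around the BAMBI score and from 59.2% to 76.4% around the scores of the SMAD6 and SMAD7 peaks.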

How the data were processed

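Samples were grouped by their titles into 1 SMAD1 ChIP and 1 input per condition. The 2 ChIP samples had peak lists, and the 2 inputs entered only the peak calling. Chromatin was fixed with 1% formaldehyde for 10 min and sheared to between 100 and 400 bp. Per the labels and the study's methods, the authors aligned reads to hg19 with BWA 0.7.5a, pooled replicate ChIP and replicate input libraries, and ran MACS 1.4.2 with its defaults. Each deposited list is many times longer than the peak number in the study, with the longer list in the other condition, so these lists may stem from another run or a looser limit. Each deposited file gives peak positions and a score, taken as −log10 of the p-value multiplied by 10, since the lowest score, 50, then gives a p-value of 1e-05. The authors judged enrichment at transfer RNA regions to be nonspecific, and such peaks were kept here. Depth per library is unknown.

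Starts were made 1-based. Distance is the difference between the nearest bases of peak and gene body, and 0 where they overlap. Gene intervals were those given in hg19 with the choice of genes, and strands were taken from GENCODE v44. The reference at hand is hg38, so no peak was placed on it, and other genes of the pathway were not analysed here. A partner overlapped by at least 1 bp. All member peaks are named, and for a gene without one the nearest peak. The genes and rules were chosen with earlier results of these data known. The comparison at similar scores and windows of each gene's own length were added after the peaks had been seen. Assignment and overlap were checked on planted peaks and against bedtools 2.31.1. Calculations used Python 3.11.15, numpy 2.4.6, pandas 2.3.3, scipy 1.17.1 and matplotlib 3.10.9.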

Additional observations from a re-analysis of the deposited data

How the results depend on the processing

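The numbers of peaks and genes, the partners and the window shares were recomputed with other settings, which gave 48 values, of which 37 stayed within 1.5 times the reported count or within the 95% interval of the share and 11 did not. With a limit of 200 kb the number of untreated peaks and the number of genes with one rose from 1 to 2, as the peak near NOG came in, and SMURF1 gained its BMP4 peak. With a minimum score of 100, both untreated numbers fell to 0, the BMP4 peaks fell from 10 to 6, and the share of 231 kb windows with a peak fell to 5.14% for untreated and 8.70% for BMP4 peaks, all of which follow from the shorter lists. A limit of 50 kb left 8 BMP4 peaks at 3 genes and removed NOG. With the BMP4 list shortened to the 5203 highest-scoring peaks, 9 BMP4 peaks at 4 genes were left. With each list limited to its 400 highest-scoring peaks, a setting chosen after seeing the data, 2 BMP4 peaks at 2 genes (BAMBI and the middle peak of SMAD7) and 0 untreated peaks at 0 genes were left. No partner was found with an overlap of 50%, a gap of 1000 bp, a limit of 50 or 200 kb, or the shortened BMP4 list, nor for the BMP4 peaks with a minimum score of 100 or among the 400 highest. In the last 2 settings no untreated peak was left at the loci examined, so partners were judged for the BMP4 peaks only. Partners were not recomputed for the other settings. No paired analysis was possible because there is a single list per condition and nothing was tested between them. A gain of binding after BMP4 and a difference in depth or enrichment between the libraries cannot be told apart from these lists.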
